A study of Mus musculus with 20 samples.

Results

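The genes of 6 protease inhibitors were followed in macrophages and monocytes sorted from MC38 tumours: Serpina3f, Serpina3g, Serpinb2, Serpinb6b and Serpinb9 of the serpin family, and Slpi, the secretory leukocyte protease inhibitor. They were named by symbol and found by Entrez number among 36528 gene models in each of 20 libraries. MC38 is a mouse colon carcinoma line grown as a tumour in mice. The 4 groups of 5 libraries were macrophages from control tumours (labelled ctrl), macrophages from tumours treated with an antibody to PD-L1 (labelled aPDL1), and monocytes from each, all collected on day 7. PD-L1 is the ligand of the inhibitory T cell receptor PD-1. All cells came from tumour-bearing mice. Strain, age, antibody dose and sort markers were not given in the sources used here. No label identifies an animal, and p-values therefore reflect only library-to-library spread, which may be technical.

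Serpins are suicide inhibitors: the protease cleaves an exposed reactive loop and is then held covalently in an inactive complex. Clade B serpins mostly act inside the cell, where they can protect it from proteases leaking from its own granules or lysosomes or delivered by cytotoxic lymphocytes, whereas Slpi is a small secreted protein of the whey acidic protein family that blocks neutrophil elastase and cathepsin G reversibly. Macrophages and monocytes carry large stores of lysosomal proteases, and several inhibitors of both families are known to be induced when these cells are activated.

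Total counts per library ran from 30191509 to 36514133, and 3 counts, taken as the floor of detection, equal 0.0994 CPM (a count scaled to one common library total) in the shallowest library. Levels are CPM scaled by TMM library sizes. All 6 genes passed the filter on low counts. The sort labels held: summed macrophage markers were 20960 to 34699 CPM in macrophages and 6517 to 9924 in monocytes, and summed monocyte markers were 286 to 522 and 4600 to 10743 CPM. Fibroblast markers moved with treatment in edgeR, 9 of 19 falling in macrophages and 12 of 19 in monocytes. In limma-voom 0 and 9 passed, and with a replicate block 2 and 11. Their summed level was 1707 to 6182 CPM in control and 1018 to 2193 in treated macrophages, and 7299 to 12809 and 4286 to 7317 in monocytes, with no marker of the list at 0. Fn1 was the largest part of that sum, at 2033 and 1416 mean CPM in control and treated macrophages and 6694 and 5022 in monocytes. Col3a1, the next highest marker, was at 539 and 59.4 mean CPM in macrophages and 883 and 117 in monocytes. In sample numbering every control precedes every treated library, so treatment and anything that ran in that order cannot be told apart.

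Serpina3f (Entrez 238393, chr12:104214544-104221129) and Serpina3g (Entrez 20715, chr12:104236147-104241939) lie 15017 bases apart on GRCm38 with 1 annotated gene, Gm8918, between them. Both belong to the mouse Serpina3 cluster, which expanded from a single ancestral gene. Their promoter windows, from 250 bases before to 50 bases after the annotated start, are shown because these genes rose in both cell types. Serpinb9 (Entrez 20723, chr13:32997061-33017955), which rose in monocytes, is shown beside them. Sequences are from RefSeq on GRCm38.p6, plus strand, 5′ to 3′. Capitals mark a match to TTCNNNGAA, the palindrome that STAT dimers are known to bind, or to the interferon-stimulated element (GAAA, any 2 bases, GAAA), both searched on both strands.
Serpina3f, chr12:104214294-104214593: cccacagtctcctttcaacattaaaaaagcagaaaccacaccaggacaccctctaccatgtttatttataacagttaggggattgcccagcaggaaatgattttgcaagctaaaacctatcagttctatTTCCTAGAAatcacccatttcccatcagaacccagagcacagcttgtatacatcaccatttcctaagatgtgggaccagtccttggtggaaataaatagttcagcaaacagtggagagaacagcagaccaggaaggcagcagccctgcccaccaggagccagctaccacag
Serpina3g, chr12:104235897-104236196: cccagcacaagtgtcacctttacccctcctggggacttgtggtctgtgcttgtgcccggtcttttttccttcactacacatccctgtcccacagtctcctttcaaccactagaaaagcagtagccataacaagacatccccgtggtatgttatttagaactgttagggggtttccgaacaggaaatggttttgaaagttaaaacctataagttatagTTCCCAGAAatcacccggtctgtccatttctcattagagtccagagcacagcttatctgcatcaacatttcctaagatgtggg
Serpinb9, chr13:33004291-33004590: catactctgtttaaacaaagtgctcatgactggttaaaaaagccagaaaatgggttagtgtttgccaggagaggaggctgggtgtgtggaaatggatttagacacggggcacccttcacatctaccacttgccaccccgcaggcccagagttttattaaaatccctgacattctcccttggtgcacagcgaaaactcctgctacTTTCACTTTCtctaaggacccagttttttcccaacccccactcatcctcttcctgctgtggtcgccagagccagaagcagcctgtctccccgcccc
Both Serpina3 windows hold 1 TTCNNNGAA match, at position -121 in Serpina3f and at position -33 in Serpina3g. The windows could be aligned over 202 bases, of which 169 (83.7%) were identical, and the matches lie at the same place in that alignment. They differ by T5C, with the Serpina3f base first and positions counted from 1 at the 5′ end of the match. Serpinb9 has a match to the interferon-stimulated element on the minus strand at position -46. Among 32851 mouse promoter windows of this length, 8.3% hold TTCNNNGAA and 3.44% hold the interferon-stimulated element. The other motifs searched, the NF-kB motif (GGG, any 5 bases, CC) and GAGGAA for PU.1, occur in 50.8% and 28.3% of windows. Of these, Serpina3g has 1 NF-kB motif match. Serpina3f has 2 overlapping stretches, 1 of which matches on both strands, in the window shown. Its second annotated window has 0 and holds the same TTCNNNGAA match at position -210. In the remaining genes, Serpinb6b (Entrez 20708, chr13:32956811-32979067) has 2 GAGGAA matches. Serpinb2 (Entrez 18788, chr1:107500892-107525600) has 1 TTCNNNGAA match, shared by its 2 overlapping annotated windows. It lies at position 11, after the start, in window 1 and at position -77 in window 2. Slpi (Entrez 20568, chr2:164354070-164356507) has no match to the 4 motifs in its window. No match says only that these letters are not in that stretch.

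Serpina3g and Slpi led the 6 genes in level, in different cells. Per gene length, in the deposited normalised RPKM (nRPKM), Serpina3g was the highest of the 6 in macrophages, at 56.9 ± 14.2 (SD, n = 5) in controls and 102 ± 19.7 after anti-PD-L1. In monocytes Slpi was the highest, at 106 ± 60.7 in controls and 128 ± 40.3 after treatment, followed by Serpina3g at 33 ± 9.42 and 74.3 ± 9.32. The ranges of Slpi and Serpina3g were separate in control monocytes and overlapped in treated ones. Serpina3f and Serpinb9 formed the middle of the order in every group, between 4.78 ± 0.996 for Serpinb9 in control monocytes and 16.8 ± 4.34 nRPKM for Serpina3f in treated monocytes. Their ranges overlapped in control macrophages, treated macrophages and control monocytes, and were separate in treated monocytes. Serpinb6b was at 1.86 ± 0.993 and 2.79 ± 0.246 nRPKM in control and treated macrophages, overlapping Slpi at 1.09 ± 0.422 and 2.01 ± 1.7, and Serpinb2 was the lowest in macrophages at 0.121 ± 0.108 and 0.4 ± 0.562, separate from Slpi in controls and overlapping it after treatment. In monocytes Serpinb2, at 1.01 ± 0.508 and 1.47 ± 1.37, and Serpinb6b, at 0.505 ± 0.163 and 1 ± 0.727, were the lowest pair and overlapped.

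**Figure D1:**
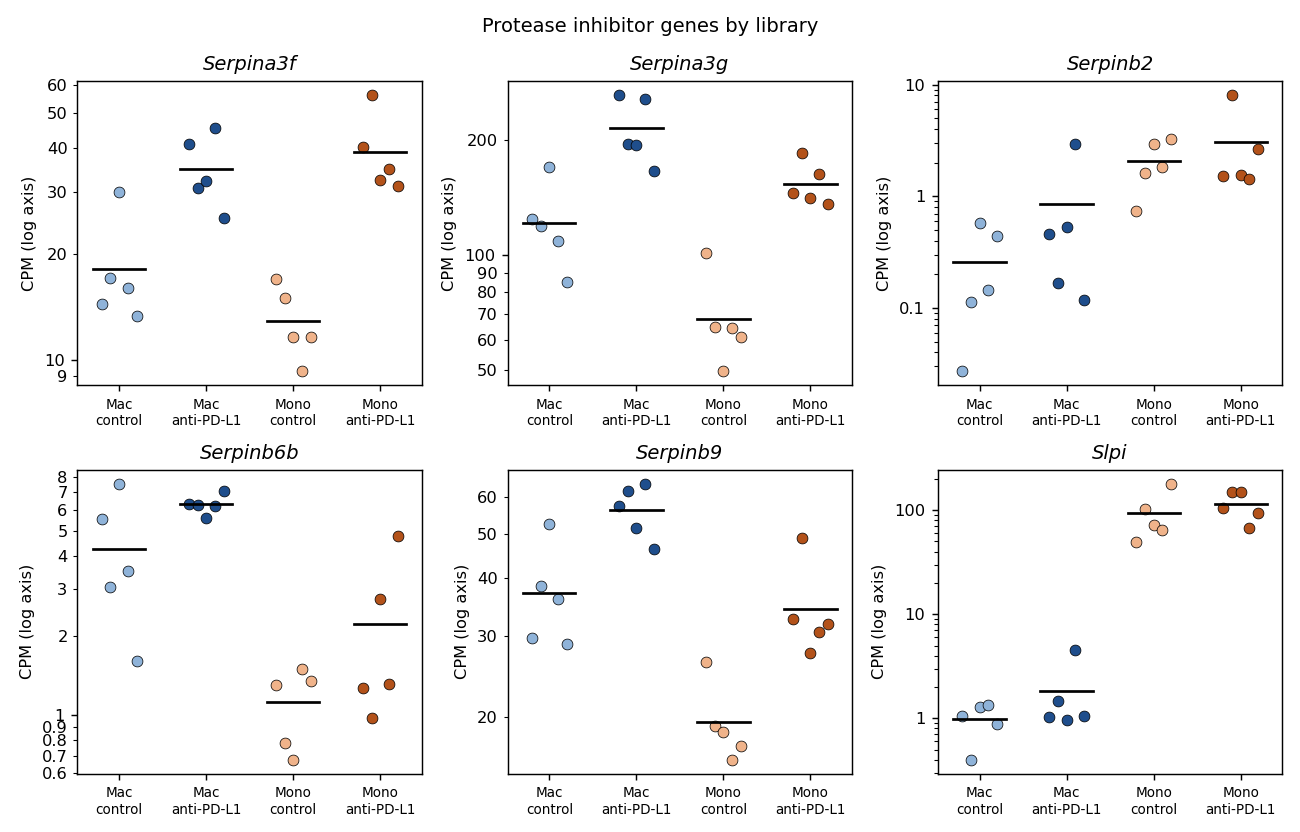
CPM of each inhibitor gene in every library (1 point per library, log axes that differ between panels), with a bar at the mean of each group of 5. The treated monocyte points of Serpina3f, Serpina3g and Serpinb9 all lie above the control monocyte points, and Slpi is between 49.7 and 180 CPM in monocytes and between 0.399 and 4.55 CPM in macrophages.

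The design asks first how these inhibitors changed in the tumour under anti-PD-L1. Serpina3f and Serpina3g rose in macrophages and in monocytes, by 1.77 to 3.02 times, and Serpinb9 rose 1.76 times in monocytes. In macrophages 2 of the 6 genes rose and 0 fell, beside 1.73% of 15390 tested genes called higher and 4.65% called in either direction. In monocytes 3 of 6 rose and 0 fell, beside 9.92% of genes called higher and 25.3% in either direction. Serpinb2, Serpinb6b and Slpi did not pass the test for treatment in either cell type. Calls are at an adjusted p of 0.05 by edgeR's quasi-likelihood test with Benjamini-Hochberg adjustment over all tested genes. In limma-voom with a replicate block of neighbouring sample numbers, 243 genes were called in macrophages in place of 715. Fits without 1 library called 0 to 3 of the inhibitors and 14 to 1928 genes there, with 14 genes when replicate 4 of the treated or replicate 5 of the control macrophages was left out, and 1928 when replicate 4 of the controls was. With the fibroblast level as a covariate, 0 inhibitors and 2 genes were called in macrophages. In bulk RNA, fewer cells of a type and less RNA per cell cannot be told apart.

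Serpina3g encodes an intracellular inhibitor of the Serpina3 cluster, also known as Spi2A, that blocks lysosomal cysteine cathepsins in the cytosol. In control macrophages, replicates 1 to 5 in turn, it was at 124, 119, 170, 109 and 84.8 CPM, and in treated macrophages at 263, 196, 194, 256 and 166 CPM. All treated libraries but replicate 5 were above every control, control replicate 3 being the high one. The log2 fold change was 0.83 (SE 0.19, 95% interval 0.44 to 1.22, edgeR adjusted p = 0.0397). In control monocytes it was at 101, 64.6, 49.6, 64.3 and 61 CPM, and in treated monocytes at 145, 185, 141, 163 and 136 CPM. The monocyte groups did not overlap, as for 5.09% of all tested genes with treated above control, and the log2 fold change was 1.18 (SE 0.19, 95% interval 0.78 to 1.57, edgeR adjusted p = 0.00325).

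Serpina3f, the neighbouring gene of the cluster, showed the larger fitted change in monocytes. Its CPM was 14.4, 17.1, 29.9, 16 and 13.3 in control macrophages and 40.9, 30.7, 32.1, 45.5 and 25.2 in treated ones. Again control replicate 3 was high and treated replicate 5 low, and these 2 libraries made the groups overlap. The log2 fold change in macrophages was 0.94 (SE 0.23, 95% interval 0.47 to 1.42, edgeR adjusted p = 0.0397). In monocytes the values were 17, 15, 11.6, 9.3 and 11.6 CPM in controls and 40.1, 56.4, 32.3, 34.8 and 31.1 CPM after treatment. Every treated monocyte library was above every control one, with a log2 fold change of 1.59 (SE 0.23, 95% interval 1.11 to 2.08, edgeR adjusted p = 0.00325).

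Serpinb9 encodes the intracellular inhibitor of granzyme B, the protease by which cytotoxic T cells and natural killer cells kill targets. It was at 26.3, 19.1, 18.5, 16.1 and 17.3 CPM in control monocytes and 32.7, 48.9, 27.5, 30.6 and 31.8 CPM in treated ones. The groups were separate, by a small margin between treated replicate 3 and control replicate 1, and the log2 fold change was 0.82 (SE 0.18, 95% interval 0.45 to 1.19, edgeR adjusted p = 0.0055). In macrophages the values were 29.7, 38.5, 52.4, 36 and 28.8 CPM in controls and 57.4, 61.8, 51.5, 64.3 and 46.4 CPM after treatment. Of the treated macrophage libraries, 3 lay above all controls. The macrophage change of 0.60 (SE 0.17, 95% interval 0.24 to 0.97) was just short of the threshold in edgeR (adjusted p = 0.0518). It passed with DESeq2's size factors (adjusted p = 0.0469), with DESeq2 (0.0116), with the fit on macrophages alone (0.0472), and with the replicate block (log2 fold change 0.63, adjusted p = 0.0499). With no filter on low counts it missed the threshold (adjusted p = 0.0603).

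**Figure D2:**
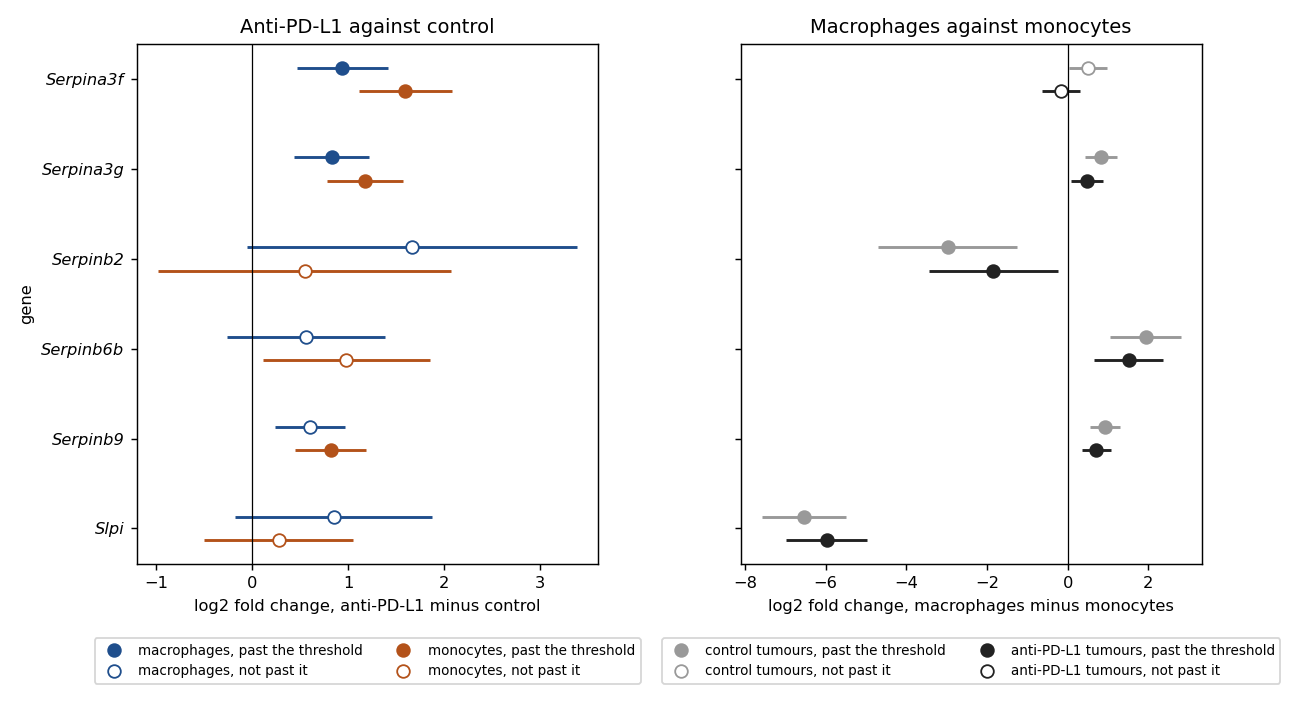
Log2 fold changes of the 6 genes with 95% intervals from edgeR's quasi-likelihood fit, for anti-PD-L1 against control (left, in macrophages and in monocytes) and for macrophages against monocytes (right, in control and in treated tumours); filled points passed an adjusted p of 0.05 over 15390 genes. On the left the filled points run from 0.83 to 1.59, and on the right Slpi stands at -6.54 and -5.97.

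The macrophage calls of the Serpina3 pair were lost in some fits that left out 1 library, and the monocyte calls in none. Serpina3f passed in monocytes in all 20 fits that left out 1 library, as did Serpina3g and Serpinb9. In macrophages, Serpina3f did not pass in 6 of the 20 fits, with log2 fold changes of 0.88 to 1.02 and adjusted p-values of 0.0508 to 0.106. The libraries left out in these fits were replicates 1, 3 and 4 of the treated macrophages, 1 and 5 of the control macrophages, and 1 of the control monocytes. Leaving out replicate 1 or 4 of the treated or replicate 1 or 5 of the control macrophages ended the call of Serpina3g, with log2 fold changes of 0.77 to 0.87 and adjusted p-values of 0.0662 to 0.0917. With all libraries in the fit the changes were 0.94 for Serpina3f and 0.83 for Serpina3g. The adjustment runs over all tested genes, of which 14 to 1928 were called in macrophages over the 20 fits. The macrophage change of Serpinb9 passed in 7 of these fits (adjusted p = 0.0263 to 0.0444), those without control macrophage replicate 2, 3 or 4, treated monocyte replicate 2 or 3, or control monocyte replicate 4 or 5.

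Fibroblast marker RNA, lower in the treated than in the control groups but with overlapping libraries in both cell types, was also set beside these calls. The 6 controls richest in fibroblast RNA were macrophage replicates 1, 3 and 5 and monocyte replicates 1, 3 and 4. Without them, macrophage replicates 2 and 4 and monocyte replicates 2 and 5 were the only controls. Those left out included macrophage replicate 3 and monocyte replicate 1, the highest controls for Serpina3f, Serpina3g and Serpinb9. With the 6 left out, Serpina3g kept its call in macrophages (log2 fold change 0.92, adjusted p = 0.0329) and in monocytes (1.27, adjusted p = 0.0108). Serpina3f kept its call in monocytes (1.53, adjusted p = 0.022), and in macrophages its change was 1.08 with an adjusted p of 0.0875. Serpinb9 was at 0.89 in monocytes (adjusted p = 0.0507) and 0.60 in macrophages (adjusted p = 0.186). With the mean fibroblast level as a covariate, log2 fold changes in monocytes were 1.47 for Serpina3f, 1.15 for Serpina3g and 0.77 for Serpinb9, and none passed (adjusted p = 0.0953, 0.11 and 0.185). In macrophages they were 0.82, 0.80 and 0.56, and none passed (adjusted p = 0.637, 0.567 and 0.662). The changes of these 3 genes lay between 0.56 and 1.53 in size under both settings.

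Serpinb6b is a mouse paralogue of Serpinb6a in the intracellular clade B. Its CPM in control macrophages was 5.52, 3.05, 7.54, 3.52 and 1.6, and in treated macrophages 6.32, 6.24, 5.56, 6.21 and 7.09. The treated macrophages lay close together within the upper part of the spread of the controls (log2 fold change 0.56, SE 0.40, edgeR adjusted p = 0.423). In control monocytes it was at 1.3, 0.783, 0.675, 1.49 and 1.34 CPM, and in treated monocytes at 1.26, 0.977, 2.75, 1.31 and 4.76 CPM. Treated monocyte replicates 3 and 5 stood above all controls and the other 3 lay among them (0.98, SE 0.42, edgeR adjusted p = 0.0887). The same treated monocyte replicates, 3 and 5, had the highest summed dendritic cell markers of their group, 32.3 and 39.4 CPM, and the highest summed T and NK cell markers, 15.3 and 28.6 CPM. Among control macrophages, replicate 3 was highest and replicate 5 lowest both for Serpinb6b and for summed dendritic cell markers, at 67.2 and 17.8 CPM. Treated macrophages and control monocytes went the other way. Treated macrophage replicate 5 was highest for Serpinb6b and lowest for the dendritic sum, at 43 CPM. Control monocyte replicate 4 was highest for Serpinb6b with the lowest sum, 18.5 CPM, and replicate 3 was lowest with the highest sum, 29.6 CPM. The 7 dendritic cell markers together ran from 17.8 to 67.2 CPM in control macrophages, 43 to 67.3 in treated macrophages, 18.5 to 29.6 in control monocytes and 21.5 to 39.4 in treated monocytes, with none at 0 in a group. In macrophages that sum followed Xcr1, at 18.1 and 36.7 mean CPM in control and treated libraries, and Clec9a, at 10.4 and 17.5, while the markers called under treatment, Zbtb46 (log2 -2.11, adjusted p = 0.0397) and Flt3 (-1.82, adjusted p = 0.0411), fell. The 8 T and NK cell markers with a gene model ran from 6.88 to 13.7, 4.8 to 21.3, 5.48 to 14.1 and 5.3 to 28.6 CPM in the same order, also with none at 0. Their part in the result was not tested.

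Serpinb2, also known as plasminogen activator inhibitor 2, inhibits urokinase, the enzyme that turns plasminogen into plasmin. It was at 0.0271, 0.114, 0.572, 0.144 and 0.437 CPM in control macrophages and 0.46, 0.168, 0.533, 2.95 and 0.117 CPM in treated ones. Treated replicate 4 alone was above the controls. The log2 fold change of 1.67 (SE 0.82, edgeR adjusted p = 0.226) did not pass and was 0.36 without that library. In control monocytes the values were 0.733, 1.63, 2.95, 1.83 and 3.27 CPM, and in treated monocytes 1.52, 8.09, 1.56, 1.44 and 2.63 CPM. Treated monocyte replicate 2 stood high, and the change of 0.55 (SE 0.73, edgeR adjusted p = 0.614) was -0.24 without it.

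Slpi was at 1.06, 0.399, 1.3, 1.35 and 0.875 CPM in control macrophages and 1.03, 1.48, 0.954, 4.55 and 1.05 CPM in treated ones. Treated replicate 4 was again the high library, and without it the log2 fold change of 0.85 (SE 0.49, edgeR adjusted p = 0.32) was 0.22. In monocytes Slpi was at 49.7, 102, 72.2, 63.9 and 180 CPM in controls and 105, 150, 149, 68.1 and 94.2 CPM after treatment. Control monocytes spread over the whole range of the treated ones (0.28, SE 0.37, edgeR adjusted p = 0.62). The direction in monocytes turned to -0.33 without the 6 fibroblast-rich control libraries and to -0.15 with the fibroblast covariate.

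The next question of the design is whether macrophages and monocytes changed alike. The difference between the macrophage and the monocyte effect passed for 0 of the 6 genes in edgeR, DESeq2 and limma-voom with and without the block. In edgeR 0 of the 6 had an unadjusted p under 0.05. Over all genes 0% were called in edgeR, where 980 genes had an unadjusted p under 0.05, 7 genes passed in DESeq2, 0 in limma-voom and 8 with the replicate block. The macrophage effect minus the monocyte effect was -0.65 for Serpina3f (95% interval -1.32 to 0.02, adjusted p = 0.794) and -0.35 for Serpina3g (-0.90 to 0.20, adjusted p = 0.907). For Serpinb9 it was -0.22 (-0.73 to 0.30, adjusted p = 0.987), and for Serpinb6b -0.42 (-1.61 to 0.77, adjusted p = 0.995). Intervals for Slpi (0.57, -0.72 to 1.86) and Serpinb2 (1.13, -1.15 to 3.40) were wider still. These intervals do not show that both cell types responded alike. With the replicate block the difference was -0.62 for Serpina3f (adjusted p = 0.188) and -0.37 for Serpina3g (adjusted p = 0.261).

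Between the sorted populations, Slpi differed most of the 6 genes, and Serpinb2 was also the monocyte gene of the set, while Serpina3g, Serpinb6b and Serpinb9 were higher in macrophages. In control tumours 5 of 6 passed the test, 3 higher and 2 lower in macrophages, beside 44.1% of all tested genes called in either direction. In treated tumours the counts were again 3 and 2, beside 53.9%. In control tumours the groups did not overlap for Serpinb6b and Serpinb9, higher in macrophages, as for 14.3% of all genes. They did not overlap there for Slpi and Serpinb2, lower in macrophages, as for 10.8%. In treated tumours the groups were separate for Serpinb6b, beside 25.0% of genes with macrophages above, and for Slpi, beside 22.0% below.

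Slpi was at 0.997 ± 0.386 CPM in control macrophages and 93.5 ± 51.9 CPM in control monocytes (n = 5 each), a 93.4-fold difference (log2 -6.54, SE 0.50, edgeR adjusted p = 7.25e-09). In treated tumours it was at 1.81 ± 1.54 and 113 ± 35.6 CPM, a 62.8-fold difference (-5.97, SE 0.48, edgeR adjusted p = 8.85e-09). Neutrophils are another known source of Slpi, and 7 of 7 tested neutrophil markers were higher in monocytes than in macrophages in control and in treated tumours. The 10 neutrophil markers summed to 50.7 to 88.3 CPM in control and 80 to 125 in treated macrophages, and to 195 to 423 and 265 to 583 CPM in monocytes. In control and treated monocytes, mean CPM was 130 and 212 for Csf3r, which monocytes also express, 75 and 86.6 for S100a9, 35.7 and 41.2 for S100a8, 30.4 and 33.8 for Mmp8, and 8.26 and 17.6 for Cxcr2. In control macrophages S100a9 was at 0.237, S100a8 at 0.204, Mmp8 at 0.993 and Cxcr2 at 0.0569 mean CPM. Ly6g was under 1 CPM in every library, Camp was at 0 in both macrophage groups, and Ngp was at 0 in control macrophages and at 1.51 mean CPM in control monocytes. The part of neutrophil RNA in the difference was not tested.

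Serpinb2 was at 0.259 ± 0.233 CPM in control macrophages and 2.08 ± 1.03 CPM in control monocytes (log2 -2.97, SE 0.83, edgeR adjusted p = 0.00634). In treated tumours it was at 0.846 ± 1.19 and 3.05 ± 2.86 CPM (-1.85, SE 0.76, edgeR adjusted p = 0.0476). That second difference passed in 7 of 20 fits without 1 library and missed the threshold in the other 13 (log2 -1.88 to -1.06, adjusted p = 0.0502 to 0.249). The 13 libraries were treated macrophage replicates 1, 2, 3 and 5, control macrophage replicates 2, 4 and 5, treated monocyte replicates 2 and 5, and control monocyte replicates 2 to 5, the value of -1.06 being that without treated monocyte replicate 2. The treated difference also missed with no filter on low counts (adjusted p = 0.0592) and with the treated groups fitted alone (0.0567). It passed with the replicate block (log2 -2.37, adjusted p = 0.00142), with DESeq2 (0.0238) and with DESeq2's size factors (0.0441). Without the 6 fibroblast-rich controls (0.0455) and with the fibroblast covariate (0.0315) it passed too.

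Serpinb6b was at 4.25 ± 2.32 CPM in control macrophages against 1.12 ± 0.362 in control monocytes (log2 1.93, SE 0.42, edgeR adjusted p = 0.000955), and at 6.28 ± 0.544 against 2.21 ± 1.58 in treated tumours (1.51, SE 0.41, edgeR adjusted p = 0.00403). Serpinb9 was at 37.1 ± 9.49 CPM against 19.4 ± 4 (0.93, SE 0.18, edgeR adjusted p = 0.000278) in controls and 56.3 ± 7.37 against 34.3 ± 8.4 (0.71, SE 0.18, edgeR adjusted p = 0.00189) after treatment. Treated monocyte replicate 2, at 48.9 CPM, is the library that reaches into the treated macrophages for Serpinb9. Serpina3g was higher in macrophages by 0.83 (SE 0.19, edgeR adjusted p = 0.00128) in control tumours, at 121 ± 31.3 against 68.1 ± 19.4 CPM. In treated tumours, at 215 ± 42.4 against 154 ± 20 CPM, the difference was 0.48 (SE 0.19, edgeR adjusted p = 0.0351). The latter missed the threshold when replicate 1 or 4 of the treated macrophages or replicate 1, 3 or 5 of the treated monocytes was left out (log2 0.43 to 0.49, adjusted p = 0.0515 to 0.0733). Serpina3f did not pass in control tumours, at 18.1 ± 6.74 against 12.9 ± 3.08 CPM (0.49, SE 0.23, edgeR adjusted p = 0.0881), nor in treated ones, at 34.9 ± 8.16 against 38.9 ± 10.3 CPM (-0.16, SE 0.23, edgeR adjusted p = 0.584). The control difference passed with the replicate block (0.46, adjusted p = 0.013) and without control monocyte replicate 1 (0.61, adjusted p = 0.0481), and the treated one turned to 0.04 without treated monocyte replicate 2.

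The ratio of the Serpina3 pair was taken within each library, and differences of the ratio between groups were not tested. Per gene length, Serpina3g exceeded Serpina3f 7.69 ± 1.2 times (SD, n = 5) in control macrophages, with a range of 6.37 to 9.61. The ratio was 6.95 ± 0.428 in treated macrophages, 5.98 ± 1.26 in control monocytes and 4.55 ± 0.66 in treated monocytes. Treated macrophages, from 6.29 to 7.37, and treated monocytes, from 3.67 to 5.24, did not overlap, whereas control monocytes, from 4.8 to 7.74, overlapped all other groups. The pair shares sequence, which bears on how uniquely aligned reads were counted. Of the words of 50 bases in a Serpina3g transcript of the GENCODE annotation, 16% also occur in transcripts of other genes, led by Serpina3h (8.67%). For Serpina3f the share was 10.7%, led by Serpina3g (6%), for Serpinb6b 3.12% and for Serpinb9 0.38%, while Serpinb2 and Slpi shared no such word. Serpina3h and Serpina3i were themselves at or under 0.225 mean CPM in every group. Counts of Serpina3f and Serpina3g are uncertain to that extent. Slpi overlaps the annotated microRNA gene Mir7678 and Serpinb9 the long noncoding RNA gene Gm36181, and whether counting used strand was not given in the sources used here.

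Within the groups, Serpina3f, Serpina3g and Serpinb9 went up and down together. Over the 20 libraries, deviations of log2 CPM from the group mean correlated at Pearson r = 0.90 for Serpina3f and Serpinb9, 0.81 for Serpina3f and Serpina3g, and 0.76 for Serpina3g and Serpinb9. For Serpinb2 and Slpi the value was 0.59. Serpinb6b was at 0.02 with Serpinb9, -0.02 with Serpina3f and 0.29 with Serpina3g. With the same genes in turn, Slpi was at 0.14, 0.28 and 0.08, and Serpinb2 at 0.36, 0.47 and 0.15. The pooled correlation of Serpinb6b with Serpinb9, which includes the group differences, was 0.73. Macrophage and monocyte libraries with neighbouring sample numbers were compared at the high and the low end of each gene. In 9 of 12 cases, 6 genes in control and in treated tumours, the highest macrophage and the highest monocyte library were neighbours, and in 4 of 12 the lowest were. Control macrophage replicate 3 and control monocyte replicate 1 were such a pair for Serpina3f, Serpina3g and Serpinb9. Treated macrophage replicate 4 and treated monocyte replicate 2 were the pair for Serpina3f, Serpinb2, Serpinb9 and Slpi. For Slpi some leads were narrow. Treated monocyte replicate 2 was at 150 CPM and replicate 3 at 149, and in nRPKM replicate 3 was higher, at 169 against 168. Control macrophage replicate 4 was at 1.35 CPM and replicate 3 at 1.3. All genes were read in the same 20 libraries, so these correlations are descriptions.

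**Figure D3:**
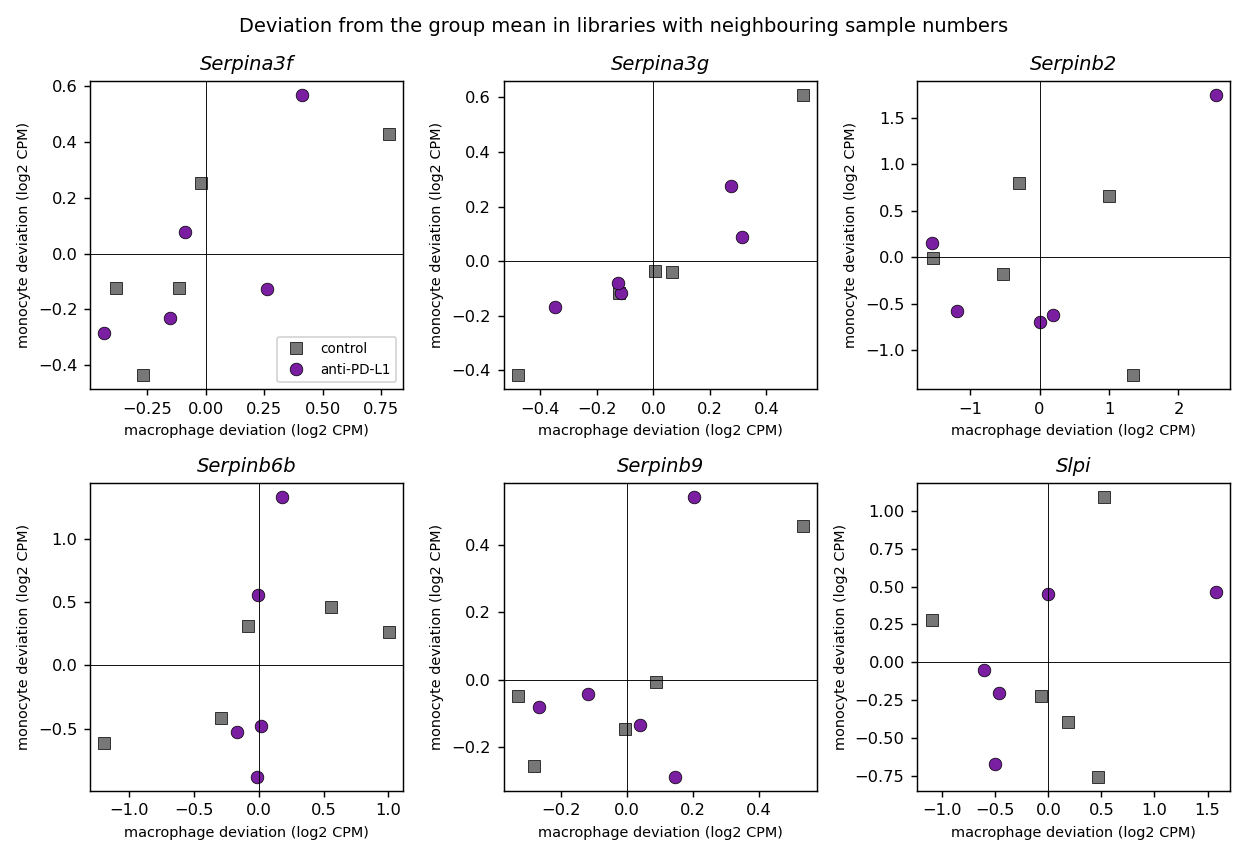
For each gene, the deviation from its group mean in a macrophage library (x axis, log2 CPM) against that in the monocyte library with the neighbouring sample number (y axis, log2 CPM), for 5 control pairs (squares) and 5 anti-PD-L1 pairs (circles). For Serpina3g the control pair of macrophage replicate 3 and monocyte replicate 1 lies at the upper right, and for Serpinb2 the treated pair of macrophage replicate 4 and monocyte replicate 2 does.

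The genes whose pattern over the 20 libraries was most like each inhibitor were ranked by Pearson's r of log2 CPM, from the 3 highest. For Serpina3g they were Il18bp (0.971), Iigp1 (0.961) and Gbp8 (0.958), and for Serpina3f Inpp5j (0.924), Gbp6 (0.924) and Tgtp2 (0.913). High values for Serpinb9 were those of Hsd3b7 (0.96) and Otud1 (0.956), and Slpi was closest to Celsr3, Chil3 and Ly6c2 (0.99 each). The highest values for Serpinb6b were those of Dennd2d (0.912), Ly86 (0.909) and Vps41 (0.9), and for Serpinb2 those of Ephx3 (0.915), Csnk1d (0.893) and Alpk2 (0.884). With the group means removed, the closest were Igtp (0.927), Slamf8 (0.914) and Gbp4 (0.909) for Serpina3f, and Iigp1 (0.886), Gbp8 (0.87) and Ly6a (0.868) for Serpina3g. For Serpinb9 they were Hsd3b7 (0.885), Gbp6 (0.84) and Igtp (0.839), and for Slpi Tarm1 (0.849), Mocos (0.848) and Celsr3 (0.819). Serpinb2 then lay closest to Ephx3 (0.838), Csf3 (0.817) and Alpk2 (0.803), and Serpinb6b to Nufip1 (0.815) and Camk2b (0.786). By Spearman's rank correlation, 0 to 2 of each 3 names were the same. The number was 0 for Serpina3f and Slpi over the 20 libraries, and for Serpina3g and Serpinb9 with the group means removed. It was 2 only for Serpinb2 over the 20 libraries, and 1 in every other set.

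Beside these inhibitors, 56 other serpin genes were looked up and 16 were tested. In macrophages edgeR called 0 of them (median log2 fold change -0.21, against -0.012 over all genes), with 2 at an unadjusted p under 0.05, 2 called by DESeq2 and 0 by limma-voom with or without the block. In monocytes 0 rose and 4 fell (median 0.03, against 0.020). Over all tested genes 25.3% were called there in either direction, a share near that of these serpins, with 1526 higher and 2374 lower. Serpinb6a, the broadly expressed paralogue of Serpinb6b, fell from 35.1 to 13.2 mean CPM there (log2 -1.42, SE 0.31, edgeR adjusted p = 0.00566). Serpinf1, which encodes the secreted factor PEDF, changed by a log2 of -2.94 (SE 0.74, adjusted p = 0.00992), Serpinh1, the collagen chaperone, by -2.83 (SE 0.83, adjusted p = 0.0195) and Serpine2, an inhibitor of thrombin and urokinase, by -1.27 (SE 0.43, adjusted p = 0.0362). These falls went with the fall of the fibroblast markers given above, and their part was not tested. Between cell types 2 other serpins were higher and 3 lower in control macrophages, beside 44.1% of all genes called. Serpinb10 showed a contrast of the kind seen for Slpi, at 0.0949 mean CPM in control macrophages and 39.2 in control monocytes (log2 -8.61, SE 0.49, adjusted p = 1.68e-10), the macrophage level being under the floor. Serpinb1a, an inhibitor of neutrophil serine proteases, was lower in control macrophages (log2 -3.32, SE 0.41, adjusted p = 2.61e-06), and Serpinb1b was higher (2.28, SE 0.33, adjusted p = 1.59e-05). In treated tumours 3 other serpins were higher and 4 lower, beside 53.9% of all genes called.

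**Figure D4:**
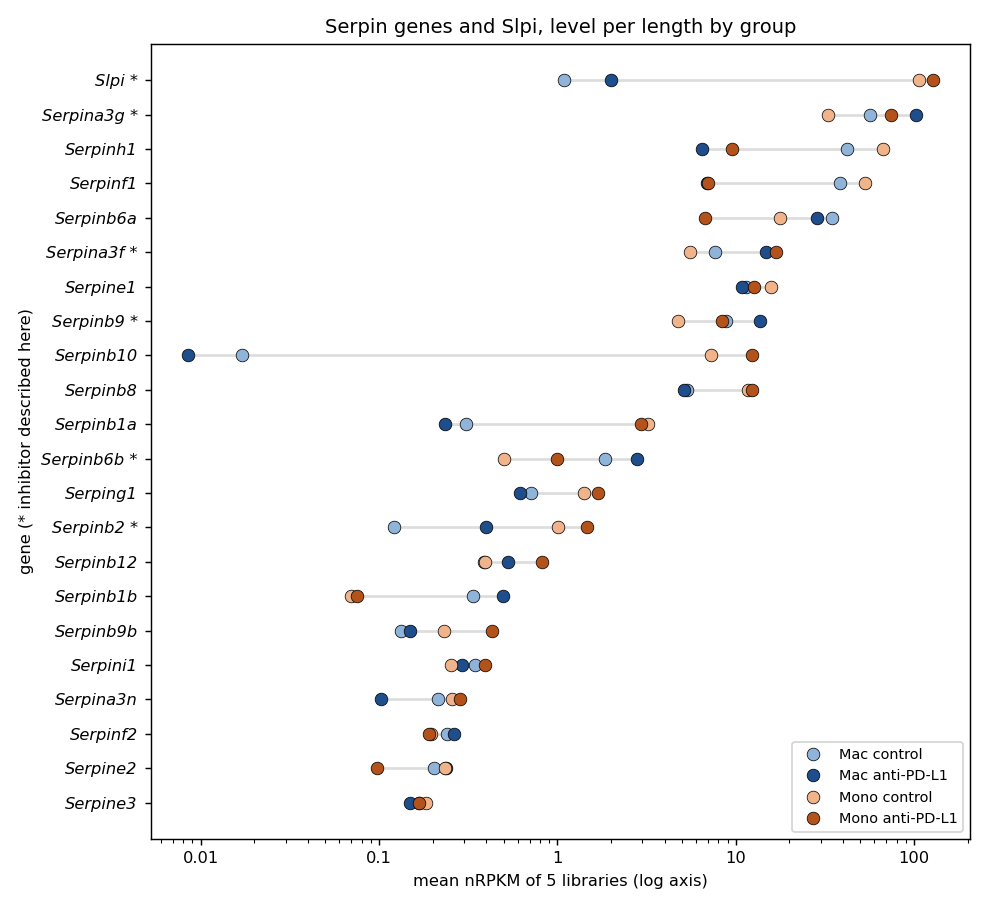
Mean nRPKM of 5 libraries in each group (log axis) for the 6 inhibitors, marked with an asterisk, and the 16 other tested serpin genes, in order of their highest group mean. Slpi and Serpinb10 are the genes whose monocyte points lie farthest to the right of their macrophage points; Slpi is at 106 and 128 nRPKM in monocytes.

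The proteases that these inhibitors are known to block were read from the same libraries. Of 10 cysteine cathepsin genes, the class that Serpina3g is known to block, 5 rose and 0 fell in monocytes, among them Ctsc (log2 0.62, SE 0.15, adjusted p = 0.0084), Ctss (0.47, SE 0.15, adjusted p = 0.031), Ctsz (0.41, SE 0.12, adjusted p = 0.0217) and Ctso (0.33, SE 0.09, adjusted p = 0.0152). Over all tested genes 9.92% rose in monocytes. The median of the list was 0.41, against 0.020 over all genes. In macrophages Ctso rose (0.36, SE 0.09, adjusted p = 0.0407) and Ctsk, the cathepsin of osteoclasts, fell by 2.46 (SE 0.59, adjusted p = 0.0397). There 6 of the 10 had an unadjusted p under 0.05 in edgeR, and DESeq2 called 5, 4 higher and 1 lower. In limma-voom with or without the replicate block 0 of the 10 passed. Between cell types 7 of the 10 were higher in control macrophages and 6 in treated ones, with 0 lower, beside 44.1% and 53.9% of all genes called in either direction.

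Granzyme genes, whose product granzyme B is the target of Serpinb9, gave 0 calls in edgeR among 6 tested of 9 in each of the 5 comparisons. At most 1 had an unadjusted p under 0.05 in a comparison, DESeq2 called 0, limma-voom called 1 between treated cell types, and the block called 1 between control and 2 between treated cell types. Gzmb was at 3.87 and 7.26 mean CPM in control and treated macrophages and at 6.6 and 12.4 in monocytes. Of the 4 neutrophil serine protease genes, which include the known targets of Slpi, 3 were tested, and Prss57 fell in treated monocytes by 1.82 on the log2 scale (SE 0.54, adjusted p = 0.0208). Prtn3 was lower in control macrophages than in control monocytes, at 0.295 against 5.55 mean CPM (log2 -4.22, SE 0.64, adjusted p = 2.74e-05). The gene of neutrophil elastase, Elane, was at or under 0.216 mean CPM in each group and was not tested. In the plasminogen activation list, which bears on Serpinb2, 10 of 11 genes were tested, with 0 edgeR calls in macrophages (2 at an unadjusted p under 0.05, 1 called by DESeq2 and 0 by limma-voom with or without the block) and 2 lower in monocytes, Plat and Serpine2. The urokinase receptor gene Plaur was higher in control monocytes, at 816 mean CPM against 232 in control macrophages (log2 -1.82, SE 0.19, adjusted p = 3.36e-07). Plau, urokinase itself, was higher in control macrophages, at 449 against 258 mean CPM (0.80, SE 0.29, adjusted p = 0.0302).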

How the data were processed

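A stranded total RNA kit was used on 0.1 ug of RNA, per the labels' protocols, while the molecule field says polyA RNA. Alignment was by GSNAP against GRCm38, per the submitters' processing notes. Its version, the annotation, the counter and the strand setting are details not given in the sources used here. What the authors deposited is, per the file headers, a count of uniquely aligned reads for each gene model and a normalised RPKM (nRPKM). The deposited RPKM equals count over gene length over a library factor (0.834 to 1.21 of its mean), and was used only to compare levels between genes. RefSeq symbols on GRCm38.p6 matched 31049 models (85.0%), which held 97.97% of the counts. Replicate numbers follow deposit order and are names only. No 2 libraries of a group agreed within sampling noise (lowest chi-square per degree of freedom 20.45).

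Counts were analysed with edgeR 4.0.16 in R 4.3.3, using filterByExpr (15390 genes kept), TMM scaling and a quasi-likelihood fit with 1 mean per group over all 20 libraries. P-values were adjusted by Benjamini-Hochberg over all tested genes, with a threshold of 0.05. The fit was tested on simulated counts. Correlations used log2 CPM with a prior count of 2. Alternatives were DESeq2 1.42.0 size factors and test, no low-count filter, limma-voom 3.58.1 with and without a replicate block, a fit on the compared groups alone, each library left out in turn and, chosen after seeing the data, the 6 control libraries richest in fibroblast markers left out or the fibroblast level as a covariate.

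The labels give no replicate numbers. Neighbouring sample numbers form 10 pairs of a macrophage and a monocyte library, and deviations from group means correlated at 0.218 to 0.722 within every pair, so they served as the block (consensus correlation 0.53). For 18 of 20 libraries the neighbour was the best correlate among the 5 libraries of the other cell type under the same treatment.

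All 6 inhibitors were named in every comparison. Of each list the rule named up to 4 called genes with the smallest p, and for each inhibitor the 3 most similar genes, of which some are not reported here. Serpina3h, Serpina3i, Elane and Gzmb, and the choice among a list's called genes, are outside that rule and were chosen after their values were seen. The members and lists were chosen with earlier results of these data known.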

Additional observations from a re-analysis of the deposited data

Results flagged for a closer look

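Of 24 sets of 5 libraries examined, 1 gene in each group, 1 held a library far from the others. Slpi in treated macrophage replicate 4 had a log2 CPM of 2.20. The remaining treated macrophages lay between 0.02 and 0.62. Its gap to the next library was 0.726 of the range of the set, above Dixon's critical value of 0.71, and chance marks about 1 set in 20. The same library was the highest treated macrophage library for Serpina3f, Serpinb2 and Serpinb9. Its neighbour by sample number, treated monocyte replicate 2, was narrowly the highest treated monocyte library for Slpi, at 150 CPM beside 149 in replicate 3.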

How the results depend on the processing

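Called genes in macrophages under treatment numbered 1878 in DESeq2, 191 in limma-voom, 243 with the replicate block, 1193 with only the macrophage groups fitted, 70 without the 6 fibroblast-rich controls and 2 with the fibroblast covariate, against 715. In limma-voom 148 rose and 43 fell, and with the block 195 and 48, where edgeR gave 266 and 449. In monocytes 2019 genes were called with only the monocyte groups fitted, 83 without the 6 controls and 3 with the covariate, against 3900. For the difference of effects DESeq2 called 7 and the block 8. Of the 6 inhibitors, 1 was called in macrophages without the 6 controls and 0 with the covariate, and 0 in monocytes with the covariate. Fits without 1 library called 14 to 1928 genes in macrophages, 1883 to 5359 in monocytes, 0 to 41 for the difference, 6000 to 7363 between cell types in control and 7721 to 8643 in treated tumours. They called 0 to 3 inhibitors in macrophages, 3 in monocytes, 0 for the difference, 5 to 6 between cell types in control and 3 to 5 in treated tumours. Over those fits directions turned for Serpinb2 in monocytes (-0.24 to 0.74, lowest without treated monocyte replicate 2) and for Serpina3f between treated cell types (-0.24 to 0.04, highest without that library). In the difference of effects they turned for Serpinb2 (-0.18 to 1.90) and Slpi (-0.05 to 0.79), lowest without treated macrophage replicate 4, and for Serpinb6b (-0.59 to 0.08), highest without treated monocyte replicate 5. Slpi in monocytes turned to -0.33 without the 6 controls and to -0.15 with the covariate. Fewer samples enter the fits that leave libraries out; otherwise the cause was not tested. The replicate block changed no other call of the 6 genes than those of Serpinb9 in macrophages (adjusted p = 0.0499) and Serpina3f in control tumours (adjusted p = 0.013). Serpinb2 had 1 to 22 counts in control macrophage libraries.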

Other observations

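Protease inhibitors outside the serpin family were also read in these libraries. Of 27 such genes, 14 were tested. In macrophages Cst7, which encodes the cystatin that restrains cathepsin C in granules, rose from 3.81 to 8.28 mean CPM (log2 1.12, SE 0.29, adjusted p = 0.0443), and Timp1, an inhibitor of matrix metalloproteinases, fell from 6.68 to 2.33 (log2 -1.53, SE 0.42, adjusted p = 0.0468). In macrophages 7 of the 14 had an unadjusted p under 0.05 in edgeR, and DESeq2 called 5, 2 higher and 3 lower. In limma-voom with or without the replicate block 0 of the 14 passed there. In monocytes 0 rose and 3 fell: Timp2 (log2 -1.84, SE 0.36, adjusted p = 0.00431), Tfpi, the tissue factor pathway inhibitor (-1.66, SE 0.39, adjusted p = 0.00728), and Reck (-1.90, SE 0.64, adjusted p = 0.0366). Fibroblast markers fell in the same libraries, and their part was not tested.

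In control tumours 0 of the 14 were higher and 7 lower in macrophages than in monocytes. Over all tested genes 44.1% were called in either direction, a share near that of the list, with 3700 higher and 3084 lower. The median log2 fold change of the list was -0.72, against -0.004 over all genes. Cstb, the cytosolic cystatin B, was at 208 mean CPM in control macrophages and 380 in control monocytes (log2 -0.87, SE 0.16, adjusted p = 0.00016). Wfdc17, of the same whey acidic protein family as Slpi, was at 44.3 and 111 mean CPM (-1.33, SE 0.24, adjusted p = 0.000169), and Stfa2l1, a stefin, at 0 and 0.787.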
